A study of Mus musculus with 300 samples.

Results

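WY14643 and GW501516, agonists of different members of the PPAR family of nuclear receptors, were set directly against each other in mouse liver at one oral dose, 10 mg/kg. The comparison was defined by the array labels (tissue, compound, dose and day) and held 30 of the 300 arrays of the series. WY14643 was represented by 15 livers, 5 each after 4, 8 and 15 days of dosing, and GW501516 by 15 livers on the same days. Each WY14643 group was compared with the GW501516 group of its own day, and the 3 differences were averaged with equal weight. The 30 vehicle livers, 10 on each day, entered none of these differences, and their levels are given beside them for orientation. They did enter the fit, together with 15 rosiglitazone livers at 10 mg/kg. The estimate of spread behind each standard error and p used all 75 liver arrays, as did the clock score below. The labels give each liver a replicate number, and each was taken as a separate mouse. Strain, sex, age, the vehicle used, drug exposure and the hour of tissue collection were not given in the sources used here, so the match between the groups is one of nominal dose and day.

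PPAR-alpha is the most abundant of these receptors in hepatocytes and switches on fatty acid uptake, mitochondrial and peroxisomal fatty acid oxidation and ketone body formation during fasting. PPAR-delta is expressed in most tissues and is best known for raising fatty acid use in muscle. Both bind DNA as partners of the retinoid X receptor, at direct repeats of one short half-site, so that the genes they can reach overlap. WY14643 is widely used as a PPAR-alpha agonist and GW501516 as a PPAR-delta agonist.

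Expression was measured on Affymetrix arrays as log2 values, on which a difference of 1 is a 2-fold change, and 18193 genes were tested. Array medians ran from 6.12 to 6.26 over the 75 liver arrays. The mean of the 9 measured hepatocyte markers (Alb among them) was 13.80 to 13.98 in WY14643 livers and 13.79 to 14.02 in GW501516 livers, so the tissue label held. The threshold for a call was 0.05 for limma's p adjusted over all genes. The livers are bulk tissue, in which fewer cells of a type and less RNA per cell cannot be told apart.

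A pair of WY14643 livers of day 4 stood apart from the rest. Replicate 2 had 13.35 for Reg3g, an acute-phase antimicrobial lectin, against 3.12 to 3.27 in the other 4 WY14643 livers of that day, and its neutrophil marker mean was 7.81. Replicate 5 had 9.74 for the cell-cycle transcription factor Mybl1 and 9.96 for Eda2r, a p53-responsive receptor, where the others reached at most 4.74 and 5.54. Of 126 called genes named in the text, 39 were no longer called without both livers. They were Aacs, Abcg5, Acot2, Acot6, Acsm5, Apoc2, C1s1, Ces1d, Ciart, Cox4i1, Cyp27a1, Cyp2c54, Cyp2d22, Esrrg, F11, F13b, Fads1, Fads2, Fah, Glud1, Hpd, Kdr, Npas2, Nr1d2, Pdgfrb, Pdia3, Pdia6, Pfkfb3, Pnpla2, Sdf2l1, Serp1, Slc10a1, Slc16a1, Slco1a1, Slco1b2, Socs2, Stard4, Tmed9 and Ugt2b1.

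Clock gene levels also differed between the groups. A clock score, component 1 of 19 clock genes signed so that Arntl was positive, was 0.50 to 3.24 in WY14643 livers on day 4 and -0.93 to -0.51 in GW501516 livers. It was -0.76 to 0.57 in WY14643 livers and -0.82 to -0.38 in GW501516 livers on day 8, and -0.79 to 1.06 against -0.996 to -0.58 on day 15. Vehicle livers spanned -1.05 to -0.11 on day 4, 0.45 to 2.31 on day 8 and -0.32 to 1.54 on day 15. WY14643 livers thus lay wholly above GW501516 livers on day 4 and overlapped with them afterwards, while GW501516 livers held a narrow range of low scores on every day. Rosiglitazone livers were low as well, from -1.15 to -0.68 apart from replicate 2 of day 4 (0.996). With components 1 and 2 of the clock genes as covariates, 17 of the 114 called genes named here that are not clock genes kept their call. They were Apmap, Ccn2, Cox6b2, Epor, Fabp4, Gldc, Hsd17b11, Krt23, Lamb3, Mamdc2, Mogat1, Ndufab1, Otop1, S1pr3, Sfxn1, Slc30a8 and Slc35f2, and the calls of all other such genes below ended. On day 4 the score did not overlap between the compounds, so these covariates can also take up a difference between the compounds.

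**Figure D1:**
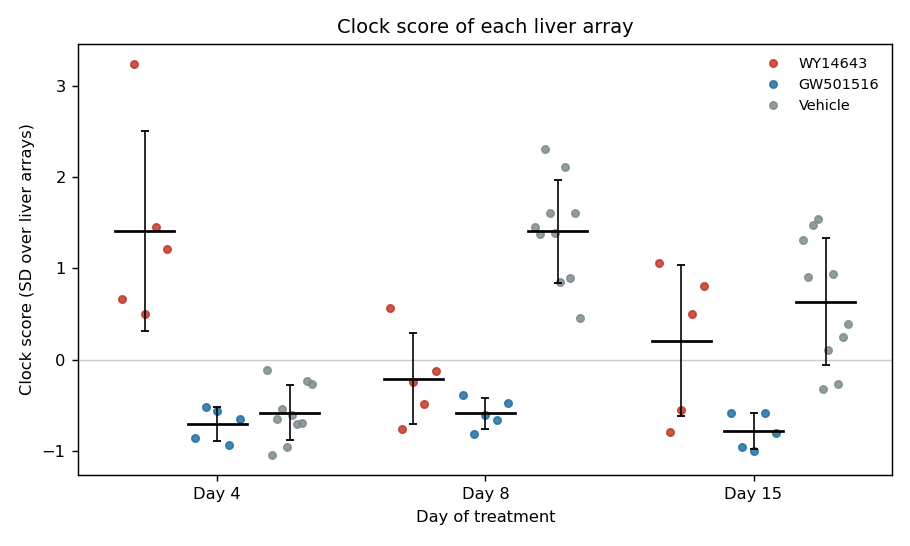
Clock score of each liver array (y axis, in standard deviations over the liver arrays) by day and compound, with group means and SD as bars. The WY14643 livers of day 4 lie between 0.50 and 3.24, above all GW501516 livers of that day.

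Averaged over the 3 days, 827 of 18193 genes (4.55%) differed between WY14643 and GW501516. WY14643 livers were higher in 413 (2.27%) and lower in 414 (2.28%), and 91 genes (0.500%) passed with at least a 1.5-fold difference, 55 higher and 36 lower. Few calls held with the clock components as covariates. Many of the genes behind these components differed between the compounds, so a call that ended does not tell clock and compound apart. Taking the clock components as covariates left 28 genes, 26 of them among the 827, and over the 827 genes the median absolute difference was 0.16 with the covariates, against 0.28 without them, while the median standard error was 0.092, against 0.071. The sign turned for 21 of the 815 that are not clock genes. Without the pair of day 4 livers that stood apart 594 genes were called, 517 of them shared. Leaving out day 4 altogether gave 196 called genes, and 34 of the 126 called genes named in the text kept their call. Only 3 genes had every WY14643 liver above every GW501516 liver on each day (0.0165% of genes), Lamb3, Slc35f2 and Nr2c2ap, and 1 gene had every WY14643 liver below (0.00550%), Mamdc2.

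The genes most elevated with WY14643 included fatty acid handling genes, a laminin chain and membrane transporters. Lamb3 encodes the beta-3 chain of laminin-332, a basement membrane protein of epithelia. It was 7.34, 7.11, 8.73, 7.40 and 7.04 in WY14643 livers of day 4, against 6.85, 6.61, 6.36, 6.75 and 6.52 in GW501516 livers. On day 8 it was 9.71, 8.86, 8.79, 8.65 and 7.67 with WY14643, against 6.51, 6.63, 6.86, 6.34 and 6.06 with GW501516. The groups did not overlap on either day. Day 15 gave 8.45, 8.50, 7.65, 8.52 and 7.62 with WY14643, against 6.41, 6.65, 6.56, 6.70 and 6.61 with GW501516, again without overlap. The difference over the 3 days was 1.57 ± 0.12 (SE; adjusted p = 1.75e-15) and 1.70 with clock components as covariates (adjusted p = 2.74e-10). GW501516 livers averaged 6.56, near the vehicle mean of 6.25.

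Mogat1, a monoacylglycerol acyltransferase that makes diacylglycerol for triglyceride synthesis, was higher as well. It was 10.22, 10.01, 10.78, 10.48 and 10.85 in WY14643 livers of day 4, against 9.47, 9.21, 8.23, 9.19 and 8.76 in GW501516 livers, with no overlap. WY14643 livers held 12.26, 11.19, 11.42, 11.72 and 10.53 on day 8, against 9.46, 10.15, 10.86, 9.32 and 8.50 in GW501516 livers, where the ranges overlapped. On day 15 the values were 11.68, 11.24, 10.90, 11.34 and 11.18 with WY14643, against 8.17, 10.64, 10.72, 10.71 and 10.28 with GW501516, and the ranges separated again. The mean difference was 1.48 ± 0.24 (adjusted p = 2.35e-05), and all 15 WY14643 livers lay above the GW501516 mean of their day. Group means were 11.05 with WY14643, 9.58 with GW501516 and 6.68 with vehicle, so both compounds lay above vehicle.

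Cd36, the fatty acid translocase, ran from 8.05 to 11.67 in WY14643 livers with a median of 10.76, against 8.11 to 10.31 with a median of 8.89 in GW501516 livers. The 2 groups overlapped on each day, although 14 of 15 WY14643 livers were above the GW501516 mean of their day. The difference was 1.19 ± 0.20 (adjusted p = 5.92e-05), 0.98 without the pair of day 4 livers, and 1.05 with clock components as covariates, where it was no longer called (adjusted p = 0.118). The other 2 probe sets of the gene gave 1.23 and 0.95. Fabp4, the adipocyte fatty acid carrier, ran from 10.61 to 13.33 with WY14643, median 11.96, against 9.99 to 12.19 with GW501516, median 10.28. Its difference was 1.52 ± 0.18 (adjusted p = 2.18e-08) and 1.35 with clock components as covariates (adjusted p = 0.00221). Fabp4 was the only called gene of the 8 measured adipocyte markers, whose mean was 5.80 to 6.58 in WY14643 livers, 5.87 to 6.28 in GW501516 livers and 5.58 to 6.07 in vehicle livers. Adipoq, which defines fat cells, was 2.92 to 3.96 with WY14643 and 3.04 to 4.21 with GW501516 (difference -0.00, adjusted p = 0.995).

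The promoters of Lamb3, Mogat1 and Cd36 are shown because the results above turn on these genes and RefSeq lists a promoter for each. Each window spans the annotated start (RefSeq, GRCm38.p6), at chr1:193301744-193302043 on the plus strand for Lamb3, the first of its 2 listed starts, chr1:78510810-78511109 on the plus strand for Mogat1 and chr5:17835847-17836146 on the minus strand for Cd36. Capitals mark the half-site AGGTCA on either strand.
Lamb3: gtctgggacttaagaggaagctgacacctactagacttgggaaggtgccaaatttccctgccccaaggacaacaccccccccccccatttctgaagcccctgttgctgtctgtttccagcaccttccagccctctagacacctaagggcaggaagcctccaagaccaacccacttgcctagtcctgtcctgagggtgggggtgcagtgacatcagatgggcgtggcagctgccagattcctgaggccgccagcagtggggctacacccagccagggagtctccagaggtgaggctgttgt
Mogat1: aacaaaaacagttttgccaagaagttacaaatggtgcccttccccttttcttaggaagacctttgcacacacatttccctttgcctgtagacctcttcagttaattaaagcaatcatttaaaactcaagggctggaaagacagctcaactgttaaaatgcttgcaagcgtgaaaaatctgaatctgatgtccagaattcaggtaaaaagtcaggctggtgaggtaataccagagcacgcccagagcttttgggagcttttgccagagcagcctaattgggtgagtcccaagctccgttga
Cd36: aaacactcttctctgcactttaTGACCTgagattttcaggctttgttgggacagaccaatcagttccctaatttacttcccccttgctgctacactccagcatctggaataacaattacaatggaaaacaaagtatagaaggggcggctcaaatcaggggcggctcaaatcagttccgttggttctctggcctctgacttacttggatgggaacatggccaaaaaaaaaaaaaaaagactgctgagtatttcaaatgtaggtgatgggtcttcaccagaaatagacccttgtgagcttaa
The full element, 2 copies of AGGTCA in one direction with any 1 base (N) between them, sought on both strands, was in none of the 3 windows, and it is in 13 of 32851 promoters (0.0396%). The half-site AGGTCA, which the full element contains, was found once, in Cd36, read on the opposite strand as TGACCT. It is in 16.3% of all promoters, in 17.5% of the genes higher with WY14643 and in 15.6% of those lower that had an entry, and in 16.5% of all tested genes with one.

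Cox6b2, a testis-enriched isoform of a cytochrome c oxidase subunit, ran from 8.54 to 11.77 with WY14643, median 9.86, against 7.16 to 10.20 with GW501516, median 8.03. Its difference was 1.69 ± 0.29 (adjusted p = 5.74e-05; 1.84 with clock components as covariates), and all 15 WY14643 livers were above the GW501516 mean of their day. The common isoform gene Cox6b1 differed by 0.02 (adjusted p = 0.841). Of the 33 measured genes of the respiratory chain and uncoupling list, Cox6b2 and Cox4i1 (0.06 ± 0.02) were the 2 called, both higher, and the list's median was 0.03 against -0.0018 over all genes. Over all genes 4.55% were called.

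Slc35f2, a nucleoside-sugar family transporter known to carry queuosine and some drugs, was 5.65 to 7.97 with WY14643, median 6.77, against 4.40 to 6.68 with GW501516, median 5.33. Its groups did not overlap on any day, though on day 4 the lowest WY14643 liver and the highest GW501516 liver were both at 5.65. The difference was 1.29 ± 0.19 (adjusted p = 2.43e-06). Otop1, a proton channel, was 2.48 to 6.73 with WY14643, median 3.53, against 2.30 to 3.09 with GW501516. Its difference came mainly from day 15, when WY14643 livers had 6.40, 5.35, 3.53, 6.73 and 4.04, against 2.52, 2.64, 2.58, 3.09 and 2.89 in GW501516 livers (2.47, adjusted p = 1.79e-09). On days 4 and 8 it was 0.59 and 0.61 (adjusted p = 0.245 and 0.496). Both genes were also called with clock components as covariates. Otop1 and Slc35f2 lay in the dimmest 40% of genes, for which no detection calls were used, as did 9 others named here (Npnt, Slc30a8, Fbp2, Camp, Npas2, Adgrl3, Epop, Epor and Jph1) and 74 of the 827 called genes in all.

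Ly6d, a lymphoid and squamous epithelial surface protein, varied widely in both groups, from 7.12 to 11.65 with WY14643 and from 6.43 to 10.33 with GW501516. The difference was 1.69 ± 0.31 (adjusted p = 0.000245), but 0.75 with clock components as covariates (adjusted p = 0.684). Krt23, a keratin of bile duct cells and stressed hepatocytes, differed by 1.17 ± 0.25 (adjusted p = 0.00147), mostly on day 8, when WY14643 livers had 9.97, 9.96, 10.10, 10.32 and 9.37, against 6.197, 8.18, 7.11, 9.17 and 7.40 in GW501516 livers. With clock components as covariates Krt23 stayed called (1.88, adjusted p = 0.000451). Those were the 2 genes called among 11 bile duct and gallbladder markers, whose median difference was -0.0084. The mean of these markers was 5.67 to 6.77 in WY14643 livers and 5.66 to 6.41 in GW501516 livers, and Sox9 was not called (0.57, adjusted p = 0.0872). Their part in the Ly6d and Krt23 differences was not tested.

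Further genes with at least 14 of 15 WY14643 livers above the GW501516 mean of their day were the extracellular matrix protein gene Npnt (1.08 ± 0.19), the magnesium transporter gene Slc41a2 (0.87 ± 0.21), the ankyrin gene Ank2 (0.82 ± 0.18), the secreted protease inhibitor-like gene Wfdc2 (0.81 ± 0.17) and the manganese exporter gene Slc30a10 (0.81 ± 0.16). With clock components as covariates Slc41a2 was 0.06, Slc30a10 was 0.14, Ank2 was 0.51, Npnt was 0.56 and Wfdc2 was 0.96 (adjusted p = 0.0916), so Wfdc2 lost its call with a difference no smaller. Of the other probe sets of Npnt, the one brightest in liver gave 0.09 (adjusted p = 0.698). With the mean of a gene's probe sets Npnt was 0.72 and Ank2 was 0.24. Ccn2, a matricellular growth factor, was 0.70 ± 0.17, and 1.30 with the covariates (adjusted p = 0.000224). The glycine cleavage enzyme gene Gldc (0.61 ± 0.09) and the zinc transporter gene Slc30a8 (0.55 ± 0.12) were also called both ways, and both were chosen for naming after their values were seen.

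**Figure D2:**
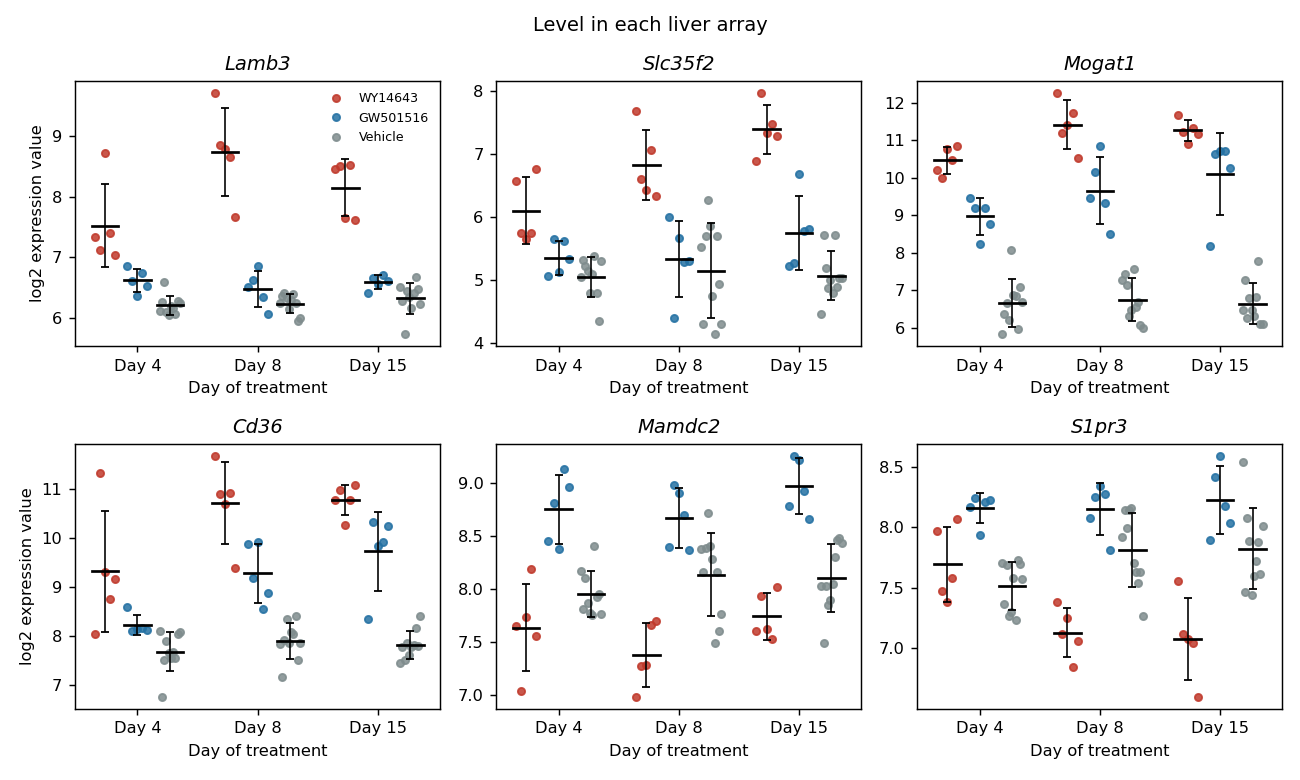
log2 expression of 6 genes (y axes) in each liver array by day for WY14643, GW501516 and vehicle, with means and SD as bars. Lamb3, Slc35f2 and Mamdc2 show no overlap between WY14643 and GW501516 on any day, while S1pr3 overlaps on day 4 and Cd36 on every day.

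Among named genes lower with WY14643, Mamdc2 and S1pr3 kept their calls under each of 15 other fits. Mamdc2, which encodes a secreted proteoglycan of the extracellular matrix, was 7.65, 7.04, 7.73, 8.18 and 7.56 in WY14643 livers of day 4, against 8.46, 8.81, 8.38, 9.13 and 8.96 in GW501516 livers. On day 8 WY14643 livers had 6.98, 7.27, 7.28, 7.66 and 7.69, against 8.39, 8.98, 8.91, 8.69 and 8.37 in GW501516 livers. On day 15 they had 7.60, 7.94, 7.62, 7.52 and 8.02, against 8.78, 9.25, 9.22, 8.92 and 8.65. Every WY14643 liver was below every GW501516 liver of its day. The difference was -1.21 ± 0.11 (adjusted p = 1.04e-12), and -1.01 with clock components as covariates (adjusted p = 5.91e-05). The WY14643 mean was 7.58 and the GW501516 mean 8.79, with the vehicle mean of 8.06 between them.

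S1pr3, a receptor for the lipid mediator sphingosine-1-phosphate, was 6.60 to 8.07 with WY14643, median 7.25, against 7.81 to 8.59 with GW501516, median 8.21. The groups overlapped on day 4 and separated on days 8 and 15, and the difference was -0.88 ± 0.10 (adjusted p = 1.64e-09, and -1.08 with clock components as covariates). By day it was -0.46 on day 4 (adjusted p = 0.109), -1.02 on day 8 and -1.14 on day 15. With the mean of the gene's probe sets the 3-day difference was -0.58. The means were 7.30 with WY14643 and 8.18 with GW501516, again on either side of the vehicle mean of 7.72. The erythropoietin receptor gene Epor was -0.42 ± 0.07 and called both ways, and was chosen after its values were seen.

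Adgrv1, a very large adhesion receptor, was lower by far in some livers, with a difference of -1.54 ± 0.25 (adjusted p = 3.60e-05). Its values ran from 7.18 to 11.96 with WY14643, median 11.03, against 10.84 to 12.64 with GW501516, median 11.98. The lowest value, 7.18, came from replicate 2 of day 4, and the difference was -1.09 without the pair of livers that stood apart. With the mean of the gene's probe sets it was -0.79. Nrep, a regulator of neuronal and fibroblast differentiation, was -1.08 ± 0.19 and -0.94 without the pair. Ccnd1, which encodes cyclin D1 of cell-cycle entry, ran from 8.39 to 12.29 with WY14643, against 9.95 to 12.08 with GW501516, a difference of -0.96 ± 0.27 (adjusted p = 0.0236). Ccnd1 and the cyclin E gene Ccne1 (-0.49 ± 0.11) were the 2 called of 37 cell-cycle genes, both lower, where 4.55% of all genes were called. The proliferation markers Mki67 (-0.19, adjusted p = 0.850) and Top2a (-0.01, adjusted p = 0.995) were not called.

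Further lower genes were the transcription regulator gene Epop (-0.80 ± 0.14), the biotin and pantothenate carrier gene Slc5a6 (-0.78 ± 0.13), the junction membrane protein gene Jph1 (-0.66 ± 0.15), the ubiquitin ligase-like gene Lonrf1 (-0.65 ± 0.12), the adhesion receptor gene Adgrl3 (-0.65 ± 0.13) and the corticosteroid-binding globulin gene Serpina6 (-0.63 ± 0.16). For Serpina6 a single liver was far below the rest: WY14643 replicate 2 of day 4 had 8.74, against 12.12 to 12.60 in the other 4. Its difference was -0.36 without the pair of livers. Slc5a6 was -0.27 and Lonrf1 was -0.30 with clock components as covariates. With the mean of a gene's probe sets Jph1 was -0.33 and Adgrl3 was -0.26. Wee1, a kinase that restrains mitosis and is under clock control, was -1.004 ± 0.18, with no WY14643 liver above the GW501516 mean of its day, and -0.20 with clock components as covariates.

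**Figure D3:**
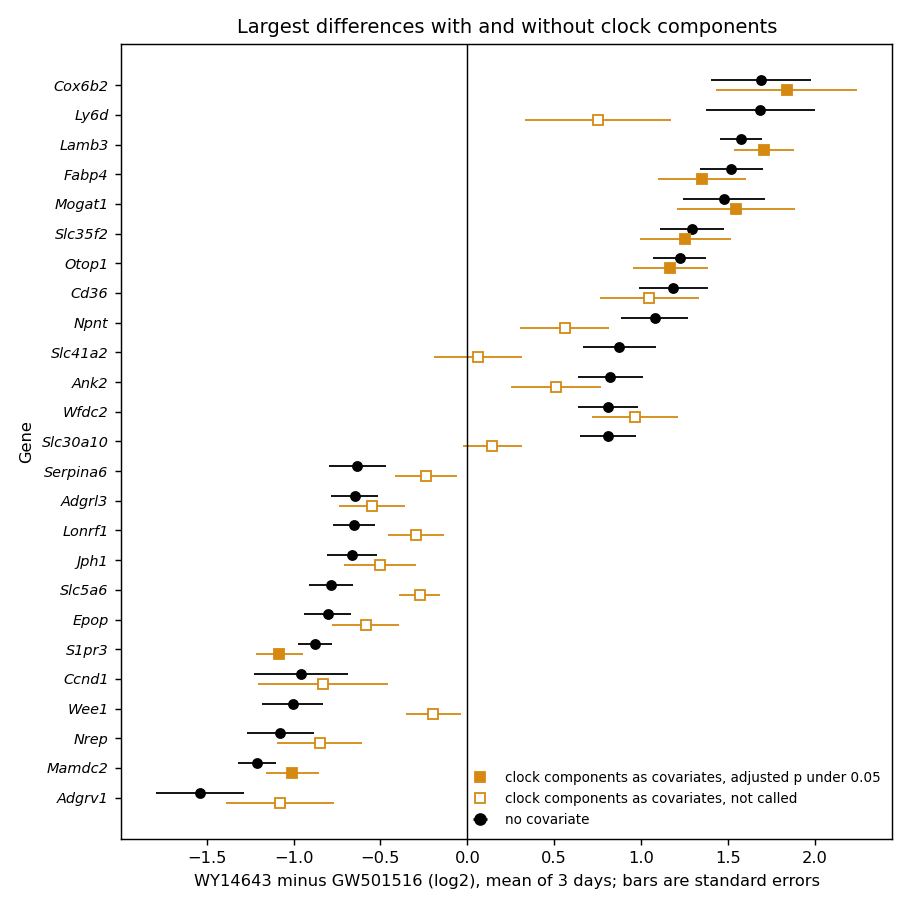
WY14643 minus GW501516 (x axis, log2, mean of 3 days, bars are SE) for the largest differences in each direction that are not clock genes, without covariates (black) and with clock components as covariates (orange, filled where called). Cox6b2, Lamb3, Fabp4, Mogat1, Slc35f2, Otop1, S1pr3 and Mamdc2 stay called, while Slc41a2 and Wee1 move to 0.06 and -0.20.

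For the classical targets of these receptors the question was which ones distinguish the agonists. Of 46 panel genes 40 were measured: 6 were higher with WY14643, 1 was lower and 33 were not called, and the panel's median difference was 0.04 against -0.0018 over all genes. The background was 2.27% of genes higher and 2.28% lower. Beside Fabp4, Mogat1 and Cd36, the higher genes were the mitochondrial acyl-CoA thioesterase gene Acot2 (0.49 ± 0.15), Ehhadh, the bifunctional enzyme of peroxisomal oxidation (0.33 ± 0.06), and Acadm, the medium-chain dehydrogenase (0.16 ± 0.04). Cpt1a, the gate of mitochondrial fatty acid entry, was the gene lower with WY14643 (-0.35 ± 0.09, adjusted p = 0.00941).

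Ehhadh was 13.15 to 13.79 with WY14643, median 13.44, against 12.80 to 13.47 with GW501516, median 13.20, and every WY14643 liver exceeded the GW501516 mean of its day. The WY14643 mean of 13.49 and the GW501516 mean of 13.16 both lay above the vehicle mean of 11.60. Acot2 was less steady: its difference was 1.17 on day 8 (adjusted p = 0.0300), 0.28 on day 4 and 0.01 on day 15. Its call ended without the pair of day 4 livers (0.35, adjusted p = 0.244). Cpt1a was 11.12 to 12.25 with WY14643, median 11.79, against 11.76 to 12.52 with GW501516, median 12.11, and the vehicle mean was 11.57. With clock components as covariates Fabp4 and Mogat1 were the 2 panel genes called, and Cpt1a was -0.18 (adjusted p = 0.766).

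Cyp4a14, a fatty acid omega-hydroxylase and a standard readout of these receptors, was far above vehicle with both compounds. It was 13.64 to 14.04 with WY14643, median 13.90, against 13.37 to 13.92 with GW501516, median 13.76, while vehicle livers ran from 5.08 to 12.10. The difference was 0.20 (95% interval -0.91 to 1.30, adjusted p = 0.925). With only the 30 WY14643 and GW501516 arrays in the fit, the same difference had an adjusted p of 0.0250. Both groups lay near the top of the scale, whose highest liver value was 14.73, and how far differences are compressed there was not tested. Cyp4a31, a close relative whose probe sets may cross-hybridise, differed by 0.90 (-0.00 to 1.81, adjusted p = 0.309).

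Other targets were not called, with intervals of different width. Narrow intervals belonged to Fabp1, the liver fatty acid carrier (-0.00, -0.05 to 0.04), Hadhb of the mitochondrial trifunctional protein (0.02, -0.05 to 0.08), Acadl (0.04, -0.03 to 0.12), the thiolase gene Acaa1b (-0.05, -0.13 to 0.02), the carnitine carrier gene Slc25a20 (-0.06, -0.13 to 0.01) and Pex11a of peroxisome division (-0.13, -0.28 to 0.03). Fabp1, at 14.22 in both groups, also lay near the top of the scale. Wide intervals belonged to the pantetheinase gene Vnn1 (0.53, 0.14 to 0.92, adjusted p = 0.114), Pdk4, which blocks glucose oxidation (0.34, -0.16 to 0.84), the lipase inhibitor gene Angptl4 (-0.07, -0.35 to 0.20), the hormone gene Fgf21 (-0.22, -0.67 to 0.22) and the thioesterase gene Acot3 (-1.07, -1.92 to -0.23, adjusted p = 0.149). Acot3 was called without day 8 (-1.96, adjusted p = 0.0118), and on day 4 WY14643 livers had 6.61, 9.39, 6.04, 6.93 and 6.41, against 10.16, 9.66, 8.14, 10.59 and 8.66 in GW501516 livers. Probe sets of the Acot1 to Acot6 cluster target nearly alike sequences, so their values are uncertain.

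**Figure D4:**
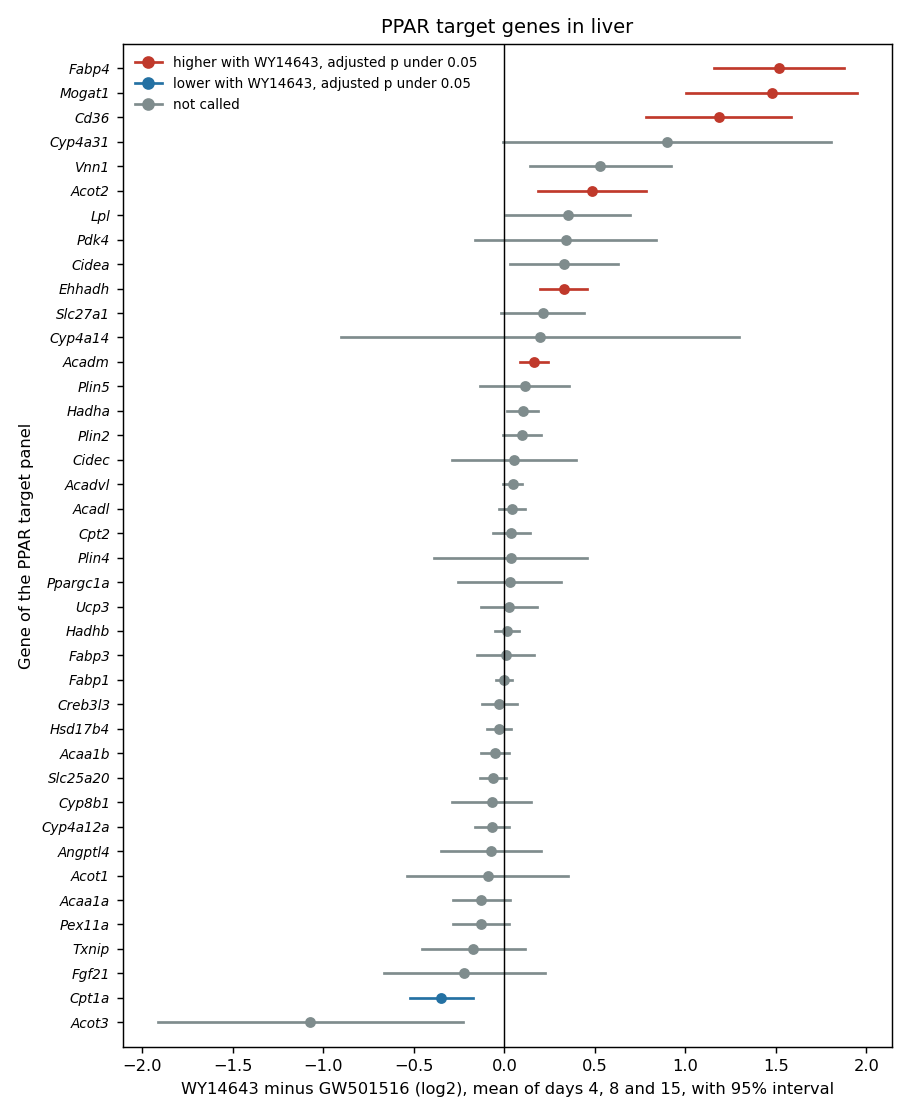
WY14643 minus GW501516 (x axis, log2, mean of 3 days) with 95% intervals for the 40 panel genes measured. Fabp4, Mogat1 and Cd36 lie between 1.19 and 1.52, Cpt1a at -0.35, and most other genes near 0.

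Of 19 measured clock genes, 4 were higher with WY14643 and 8 lower, beside 2.27% and 2.28% of all genes, and their median difference was -0.29. The activators Arntl (1.58 ± 0.27), Npas2 (0.84 ± 0.25) and Clock (0.56 ± 0.10) and the repressor gene Nfil3 (0.68 ± 0.15) were higher. The repressors Ciart (-0.89 ± 0.27), Per3 (-0.73 ± 0.16), Per2 (-0.69 ± 0.14) and Cry2 (-0.33 ± 0.08), the clock-controlled deubiquitinase gene Usp2 (-1.12 ± 0.22), the output factors Tef (-0.39 ± 0.08) and Hlf (-0.33 ± 0.08) and Nr1d2 (-0.25 ± 0.06) were lower. Dbp was not called (-0.73, adjusted p = 0.0530). Without the pair of day 4 livers 3 were higher and 6 lower. Npas2 had a second, brighter probe set in liver that gave -0.08.

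Arntl showed when this difference arose. On day 4 it was 7.42, 9.27, 7.08, 7.40 and 7.39 in WY14643 livers, against 5.14, 5.51, 5.38, 4.97 and 5.35 in GW501516 livers, with no overlap (2.44, adjusted p = 0.000787). On day 8 it was 7.44, 5.23, 6.09, 5.64 and 5.92 with WY14643, against 5.23, 5.57, 5.69, 5.28 and 5.49 with GW501516, and the groups overlapped. On day 15 WY14643 livers held 8.21, 6.11, 5.94, 7.35 and 7.55, against 5.70, 5.31, 5.06, 5.29 and 5.29, without overlap. Vehicle livers ran from 5.07 to 9.27 over the 3 days, a range as wide as that of WY14643 livers. Per3 mirrored this on day 4, with 10.55, 7.84, 10.45, 10.02 and 10.49 in WY14643 livers, against 11.50 to 11.60 in GW501516 livers. Its difference was -1.68 on day 4 and 0.02 on day 8. Collection hour was not given in the sources used here, and an effect of the compounds on the clock and a difference in collection time cannot be told apart.

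The Ciart promoter is shown because it held the most copies of the E-box CACGTG, the site bound by the Arntl and Clock pair, among clock genes with an entry. It lies at chr3:95882179-95882478 on the minus strand (GRCm38.p6), and capitals mark its 3 E-boxes.
Ciart: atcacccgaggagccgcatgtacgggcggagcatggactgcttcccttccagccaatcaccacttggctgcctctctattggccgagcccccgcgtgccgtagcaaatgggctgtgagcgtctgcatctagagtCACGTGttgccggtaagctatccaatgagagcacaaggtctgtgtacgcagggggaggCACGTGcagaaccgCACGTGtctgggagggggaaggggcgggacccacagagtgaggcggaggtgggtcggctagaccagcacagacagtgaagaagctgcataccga
The E-box reads the same on both strands. Of 17 clock genes with an entry, 5 held it, beside 7.15% of all promoters. It was in 17.8% of the genes lower with WY14643 that had an entry, in 11.4% of those higher and in 10.2% of all tested genes with one.

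Of 29 bile acid genes, 8 were lower with WY14643 and 2 higher, with a list median of -0.13. Over all genes 2.28% were lower and 2.27% higher. Cyp7a1, the rate-limiting enzyme of bile acid synthesis, was 11.26, 6.56, 12.47, 11.73 and 12.74 on day 4, 11.68, 11.76, 10.95, 11.65 and 11.80 on day 8 and 11.14, 11.32, 11.75, 10.60 and 11.39 on day 15 in WY14643 livers. GW501516 livers had 11.80, 12.41, 12.77, 12.65 and 12.25 on day 4, 12.09, 12.03, 12.47, 12.52 and 12.15 on day 8 and 12.94, 12.32, 12.61, 12.37 and 12.75 on day 15. The groups overlapped on day 4 and separated on days 8 and 15. The difference was -1.16 ± 0.26 (adjusted p = 0.00321), -0.87 without the pair of day 4 livers and -0.76 with clock components as covariates (adjusted p = 0.519).

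Cyp39a1, an oxysterol hydroxylase (-0.87 ± 0.26), Cyp27a1 of the alternative pathway (-0.22 ± 0.05), the uptake carriers Slco1a1 (-0.29 ± 0.08), Slco1b2 (-0.21 ± 0.06) and Slc10a1 (-0.14 ± 0.04), the sterol exporter Abcg5 (-0.24 ± 0.07) and the reductase gene Akr1c6 (-0.20 ± 0.05) were the others lower. Slc51b, a basolateral bile acid exporter (0.87 ± 0.22), and the peroxisomal side-chain oxidase gene Acox2 (0.19 ± 0.05) were higher. Leaving out the pair of day 4 livers gave 3 lower and 5 higher, so the balance of this list rested on them. Without them Slco1a1 was -0.11, Slc10a1 -0.061 and Cyp27a1 -0.13. Cyp8b1, which sets the cholic acid share, was not called (-0.07, adjusted p = 0.840).

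The unfolded protein list of endoplasmic reticulum folding genes had a median of 0.19, beside 2.27% of all genes higher and 2.28% lower. In it 7 of 24 genes were higher with WY14643 and 0 lower. They were the cofactor gene Sdf2l1 (0.77 ± 0.21), the chaperone gene Hyou1 (0.55 ± 0.13), Manf, a secreted stress factor (0.50 ± 0.13), Edem1 of protein disposal (0.27 ± 0.06, but 0.10 in its probe set brightest in liver), the disulfide isomerases Pdia6 (0.25 ± 0.07) and Pdia3 (0.23 ± 0.06) and Calr (0.13 ± 0.03). Hspa5, the chief chaperone, was not called (0.18, adjusted p = 0.124). Hyou1 was 10.82, 11.71, 10.92, 11.64 and 11.11 in WY14643 livers of day 4, against 10.42, 10.27, 10.21, 10.17 and 10.62 in GW501516 livers. On day 8 it was 10.05, 10.39, 10.43, 10.27 and 11.18 with WY14643, against 10.59, 10.50, 10.79, 10.53 and 10.69. The groups were apart on day 4 and overlapped on day 8, and on day 15 the difference was 0.91 (adjusted p = 0.0454), as on day 4 (0.90). The list's median was 0.42 on day 4, -0.12 on day 8 and 0.29 on day 15, with 9, 0 and 2 genes called, all higher. Over all genes 1.85%, 0.121% and 0.143% were higher on those days. For the 3-day mean 4 genes of the list were called without the pair of day 4 livers. With clock components as covariates the list held 0 calls.

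Of 29 P450 genes of families 1 to 3, 4 were lower and 0 higher, beside 2.28% and 2.27% of all genes. The lower ones were Cyp1a2, which oxidises aromatic amines (-0.60 ± 0.14), Cyp2c50 (-0.56 ± 0.13), Cyp2c54 (-0.53 ± 0.15) and Cyp2d22 (-0.25 ± 0.07). Cyp1a2 in WY14643 replicate 2 of day 4 was 9.29, against 11.74 to 12.46 in the other 4, and without the pair of livers Cyp1a2 and Cyp2c50 were the 2 called, with Cyp2c54 at -0.30. Of 41 conjugation genes, Ugt2a3 (-0.33 ± 0.08), the carboxylesterase gene Ces1d (-0.30 ± 0.09) and Ugt2b1 (-0.21 ± 0.06) were lower, and Ugt2a3 was the 1 called without the pair, with Ces1d at -0.12. Members of the Cyp2c and Ugt families resemble each other, and their probe sets may share signal. Nr1i3, the xenobiotic receptor CAR, was -0.45 ± 0.09, and Esrrg, an estrogen-related receptor of energy metabolism, was -0.63 ± 0.19. Those were the 2 called of 25 nuclear receptors and coregulators, where 4.55% of all genes were called. Ppara itself was not called (-0.21, adjusted p = 0.149), nor was Ppard (-0.12, adjusted p = 0.491).

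Complement and clotting genes were 6 lower and 0 higher of 42, all by small amounts: F11 (-0.24 ± 0.06), C8b (-0.22 ± 0.05), C1s1 (-0.17 ± 0.05), C1ra (-0.15 ± 0.03), F13b (-0.14 ± 0.04) and the prothrombin gene F2 (-0.05 ± 0.01). The list's median was 0.0033, and over all genes 2.28% were lower and 2.27% higher. The calls of F11, C1s1 and F13b ended without the pair of day 4 livers. Of 23 hepatokines, Serpina12, the insulin-sensitising protein vaspin (-1.06 ± 0.23), the chemotactic factor Lect2 (-0.37 ± 0.07), the chemerin gene Rarres2 (-0.20 ± 0.04) and the fetuin gene Ahsg (-0.05 ± 0.02) were lower, and Ccn2 was higher. Serpina12 averaged 10.69 with WY14643 and 11.75 with GW501516, both under the vehicle mean of 13.03. Its difference was -0.56 with the mean of its probe sets.

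For the lists of this and the next paragraph the shares over all genes were 2.27% higher and 2.28% lower. Among 6 measured ketone body genes the carriers Slc16a6 (0.62 ± 0.13) and Slc16a1 (0.26 ± 0.07) and the ketolytic enzyme gene Oxct1 (0.37 ± 0.08) were higher, and Aacs, which returns ketone bodies to lipid synthesis, was lower (-0.54 ± 0.15). In the glucose list of 21, the muscle-type bisphosphatase gene Fbp2 was higher (0.80 ± 0.15), while the glycogen synthase gene Gys2 (-0.45 ± 0.08), the glucose-6-phosphate carrier gene Slc37a4 (-0.25 ± 0.06) and Pfkfb3, a regulator of glycolysis (-0.75 ± 0.23), were lower. Fbp2 was 9.06, 6.62, 7.10, 6.83 and 5.96 with WY14643 on day 8, against 5.25, 5.85, 5.59, 5.61 and 5.42 with GW501516, without overlap. Its difference was 0.69 on day 4 (adjusted p = 0.123) and 0.12 on day 15 (adjusted p = 0.952), and 0.41 without day 8, where its call ended. Gys2 was -0.08 and Aacs was -0.19 with clock components as covariates. Pfkfb3 had the opposite sign with clock components as covariates (0.13, adjusted p = 0.961).

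Amino acid genes were 3 higher and 4 lower of 34, led by the histidase gene Hal (0.32 ± 0.06), the kynureninase gene Kynu (0.28 ± 0.06) and Cth of cysteine synthesis (0.18 ± 0.05) on one side and proline dehydrogenase, Prodh (-0.58 ± 0.12), on the other. Glud1 (-0.09 ± 0.03), Hpd (-0.08 ± 0.02) and Fah (-0.05 ± 0.02) were lower too, and these 3 calls ended when single arrays were left out, in 5, 12 and 21 of 30 cases. Prodh was -0.29 with clock components as covariates. Among 28 lipid droplet genes, Mogat1 and the droplet protein gene Hsd17b11 (0.34 ± 0.06) were higher, and the lipase gene Pnpla2 (-0.29 ± 0.09), Fitm2, which helps droplets form (-0.28 ± 0.06), and Dgat2 (-0.15 ± 0.03) were lower. Insig2, a brake on sterol synthesis, was higher (0.62 ± 0.10) with 15 of 15 WY14643 livers above the GW501516 mean of their day, but 0.24 with clock components as covariates (adjusted p = 0.638), and the sterol carrier gene Stard4 was lower (-0.29 ± 0.09). The desaturases Fads1 (-0.22 ± 0.07) and Fads2 (-0.15 ± 0.05) were the 2 called of 23 fatty acid synthesis genes. The peroxisome list had 4 higher and 1 lower of 46, with Hacl1 (0.28 ± 0.07), Acot6 (0.41 ± 0.13) and the import factor gene Pex26 (-0.39 ± 0.11) beside Ehhadh and Acox2. Mitochondrial oxidation was 2 and 2 of 29, with Acsm5 (-0.24 ± 0.07) and Cpt1a lower. Leaving out single arrays ended the calls of Acot2 and Acsm5 in 19 of 30 cases each, those of Abcg5, Acot6, Ciart, Pdgfrb and Pfkfb3 in 18 each, that of Ahsg in 17 and that of Fads2 in 16. Fatty acid uptake genes were 2 higher of 22, Cd36 and Fabp4, and thioesterases 2 higher of 14, Acot2 and Acot6. The apolipoprotein gene Apoc2 (0.15 ± 0.04) was the 1 called of 19, Socs2 (-0.65 ± 0.19) and Slco1a1 were the 2 called of 23 growth hormone and sex-biased genes, and Pnpla2 was the 1 called of 16 glucocorticoid-inducible genes. Heat shock chaperones (13) and omega-hydroxylases (12) held 0 calls in limma.

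**Figure D5:**
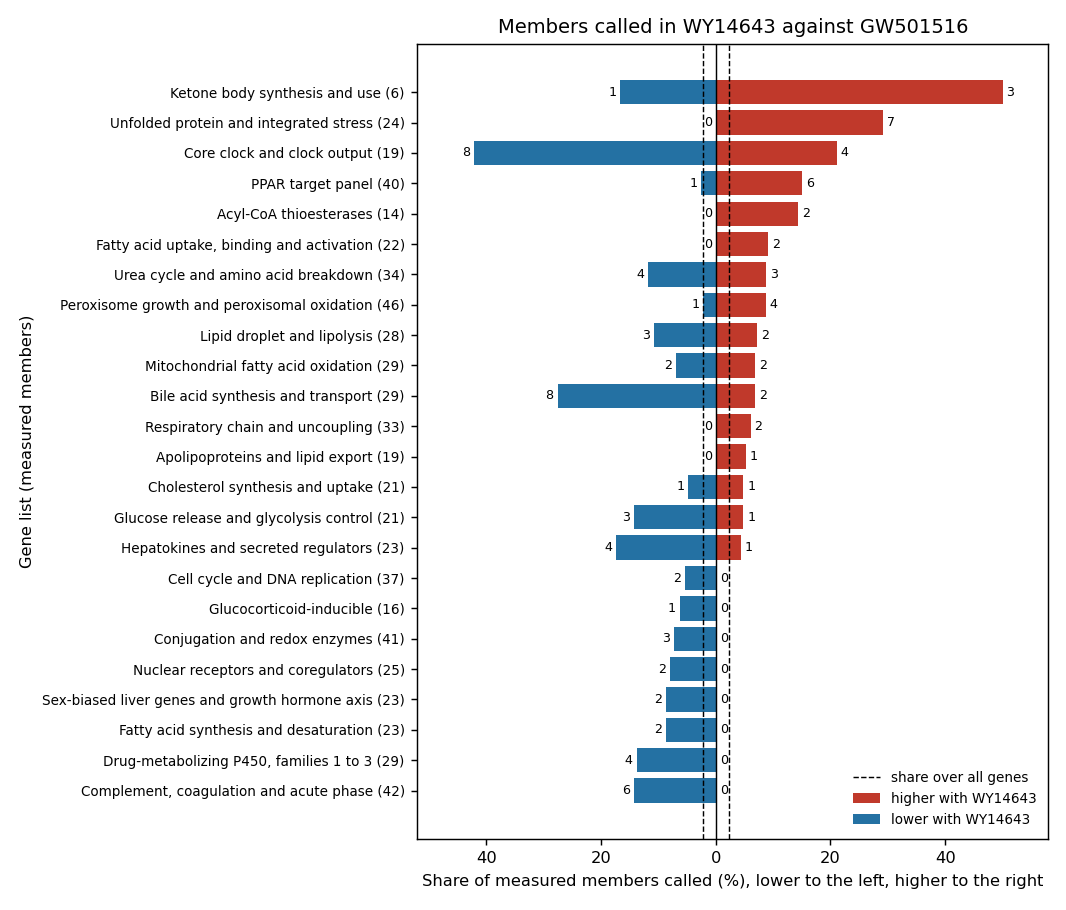
Share of measured members of each gene list called higher (right) or lower (left) with WY14643 than with GW501516, mean of 3 days, with counts at the bar ends and the number measured in brackets. Dashed lines are the shares over all genes, 2.27% higher and 2.28% lower, and lists with no call are not drawn.

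Some markers of other cells were called, where 4.55% of all genes were. Lyz2, a macrophage lysozyme, was higher (0.65 ± 0.13) as 1 of 15 macrophage markers, and the list's mean was 8.98 to 10.47 in WY14643 livers and 9.12 to 10.46 in GW501516 livers. Camp, a neutrophil granule protein, was higher (0.55 ± 0.13) as 1 of 7 neutrophil markers, whose median difference was 0.51 and whose mean ran from 5.01 to 7.81 with WY14643 and from 5.002 to 6.72 with GW501516. Pdgfrb of stellate cells (0.34 ± 0.10) was 1 of 12 called, the endothelial receptor gene Kdr (-0.19 ± 0.05) 1 of 10 and Ahsg 1 of 9 hepatocyte markers. Lymphocyte (12), pancreatic acinar (8) and erythroid (4) markers held 0 calls in limma. The part of other cells in the results was not tested.

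On day 4 678 genes were called (3.73%), 337 higher (1.85%) and 341 lower (1.87%) with WY14643, against 29 on day 8 (0.159%; 22 higher, 0.121%, and 7 lower, 0.0385%) and 53 on day 15 (0.291%; 26 higher, 0.143%, and 27 lower, 0.148%). With each array centred on its median the day 4 split was 228 higher and 363 lower. Of the 827 genes of the 3-day mean, 748 had the same sign on all days, and their median absolute difference was 0.36 on day 4, 0.17 on day 8 and 0.28 on day 15. The day 4 count fell to 70 without the pair of livers that stood apart. It was 242 without replicate 2 alone. The order of the days turned under these alternatives. Without the pair the counts were 70, 42 and 102 on days 4, 8 and 15, and with clock components as covariates they were 18, 32 and 6.

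Genes called on all 3 days were 3: Lamb3, Mamdc2 and Copz2, a coat protein of vesicle traffic (0.44, 0.54 and 0.56 on days 4, 8 and 15), which was named for this count. On day 8, 2 of the 33 genes of the respiratory chain list were called, Cox6b2 (2.32) and Cox4i1 (0.13), both higher, with 0 on days 4 and 15. Outside that list, the respiratory chain subunits Ndufab1 (0.37, adjusted p = 8.20e-06), Uqcr10 (0.24, adjusted p = 0.00115) and Ndufs7 (0.22, adjusted p = 0.0182) were higher with WY14643 on day 8. On day 4 they were 0.04, -0.01 and -0.08. For the 3-day mean Ndufab1 was 0.16, but 0.03 with the mean of its probe sets. Day 15 added the activin subunit gene Inhbb (-1.46, adjusted p = 0.00158) and Idh3a of the citric acid cycle (-0.64, adjusted p = 0.000562). These 5 genes were chosen after their values were seen.

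The change of the difference between days was tested directly. Between day 4 and day 8 it was called for 73 genes (0.401%), more positive on day 8 for 40 (0.220%) and more negative for 33 (0.181%). Among those more negative were genes of protein folding and secretion, Dnajb11 (-0.68), Dnajc10 (-0.67), Edem3 (-0.60), Sec13 (-0.51), Serp1 (-0.42), Tmed9 (-0.39) and Ssr3 (-0.28), all above 0 on day 4 and below 0 on day 8, and chosen after their values were seen. On day 15 these genes, except Edem3 (-0.03), were above 0 again, from 0.14 for Ssr3 to 0.39 for Dnajb11. Lamb3 (1.35), Cyp2c54 (1.49) and Per3 (1.71) became more positive. The whole count of 73 was 0 without the pair of day 4 livers and 0 with clock components as covariates. Between days 4 and 15 and between days 8 and 15, 0 genes were called in limma, with 1016 and 1060 at an unadjusted p under 0.05.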

How the data were processed

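The deposited log2 values were made by the authors with RMA in Partek, per the submitters' processing notes, from Affymetrix mouse whole-genome arrays. RMA background-corrects, quantile-normalizes and summarizes probes, which compresses differences of dim genes, and the arrays carry no detection call here. Of 45101 probe sets, 34945 name 1 gene, and the probe set brightest over all 300 arrays stood for each of 18193 genes. limma 3.58.1 in R 4.3.3 was fitted to all 75 liver arrays with a trended prior (63 residual degrees of freedom). Its 12 groups were WY14643, GW501516, rosiglitazone and vehicle on each of the 3 days. The contrast was the mean of the 3 within-day differences, two-sided, with Benjamini-Hochberg adjustment over all genes and a threshold of 0.05. The number of arrays limits the precision.

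Named genes were the 14 largest called differences in each direction with at least 14 of 15 WY14643 arrays on that side, called list members (up to 4, and 2 of opposite sign) and the PPAR panel. Members and lists were chosen with earlier results of these data known, as were the other genes named, among them Nr2c2ap, Copz2 and the clock, bile acid, folding, clotting and amino acid genes beyond that number. Clock components are principal components of the 19 clock genes over liver arrays. Each result was recomputed under other fits, and the fit was tested on simulated data.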

Additional observations from a re-analysis of the deposited data

Results flagged for a closer look

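In groups of 5 livers a value was picked out when its gap to the nearest other exceeded 0.71 of the group's range (Dixon's test), which chance does in about 1 in 20 groups. Of 258 groups checked, 22 held such a value. GW501516 replicate 1 of day 15 was picked out 6 times, low for Acot2 (10.93), Ccnd1 (9.95), Cd36 (8.35), Ehhadh (12.90), Mogat1 (8.17) and Slc30a10 (7.61). WY14643 replicate 2 of day 4 was high for Arntl (9.27) and low for Serpina6 (8.74), and replicate 5 of that day was high for Ank2 (9.14). WY14643 replicate 3 of day 4 was high for Lamb3 (8.73) and low for Adgrl3 (3.67). Other high values were those of Adgrl3 in GW501516 replicate 4 of day 15 (5.90), Cd36 in GW501516 replicate 1 of day 4 (8.59), Lonrf1 in WY14643 replicate 3 of day 15 (10.98), Ly6d in GW501516 replicate 2 of day 4 (8.73), Npnt in WY14643 replicate 5 of day 15 (6.97) and in GW501516 replicate 3 of day 8 (5.21). Further single values were Per2 in GW501516 replicate 2 of day 8 (10.40), S1pr3 in GW501516 replicate 3 of day 4 (7.94), Usp2 in GW501516 replicate 1 of day 8 (11.55), Wfdc2 in GW501516 replicate 2 of day 8 (7.30) and the lymphocyte marker mean in WY14643 replicate 2 of day 15 (5.77).

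The difference between WY14643 and GW501516 changed from day 4 to day 8, by limma's test of that change, for 13 named genes. It became more positive for Per3 (1.71), Cyp2c54 (1.49), Lamb3 (1.35), Ndufab1 (0.33), Ndufs7 (0.30) and Uqcr10 (0.25). It became more negative for Dnajb11 (-0.68), Dnajc10 (-0.67), Edem3 (-0.60), Sec13 (-0.51), Serp1 (-0.42), Tmed9 (-0.39) and Ssr3 (-0.28). None of the 73 calls of this kind held without both WY14643 livers of day 4 that stood apart.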

How the results depend on the processing

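Each count is of genes called in limma, and the numbers in the text come from the fit to all 75 liver arrays. With only the 30 WY14643 and GW501516 arrays in the fit, 528 genes were called for the 3-day mean (against 827) and 325 on day 4 (against 678). That fit called 4 on day 8 (against 29), 22 on day 15 (against 53) and 2 for the change from day 4 to day 8 (against 73). With clock components as covariates the counts were 28 for the mean, 18 on day 4, 32 on day 8, 6 on day 15 and 0 for that change. Without both WY14643 livers of day 4 that stood apart they were 70 on day 4, 102 on day 15, 0 for the change from day 4 to day 8 and 4 for that from day 8 to day 15, and with both steps 36 for the mean, 0 on day 4, 73 on day 8, 8 on day 15 and 0 for the first change. The mean gave 196 without day 4 and 347 without day 15. The mean of a gene's probe sets gave 17 on day 8 and 41 for the first change, centring on the array median gave 19 and 44 (31 more positive, 13 more negative), array weights gave 100 on day 8 and 1 for the change from day 4 to day 15, and leaving out dim genes gave 178 for the first change. The causes were not tested.

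Leaving out 1 array in turn gave 666 to 993 for the mean, 242 to 980 on day 4 and 0 to 256 for the change from day 4 to day 8. It gave 10 (without WY14643 replicate 1 of that day) to 56 (without replicate 5) on day 8 and 13 (without WY14643 replicate 4 of that day) to 102 (without replicate 2) on day 15. The change from day 4 to day 15 gave 0 to 2 and that from day 8 to day 15 gave 0 to 10. With the replicate number as a block 806 genes were called for the mean and 1 for the change from day 4 to day 15. Same-numbered WY14643 and GW501516 livers of a day correlated at -0.095 to 0.45, and differently numbered ones at -0.14 to 0.025 on average. The labels state no pairing, and the main fit took none. With clock components the sign turned for 21 of 815 called genes that are not clock genes. Among named genes signs turned for Hacl1 (-0.0081) and Pfkfb3 (0.13) with clock components, for Abcg5 (0.0069) and Pfkfb3 (0.093) with these and without both livers, and for Npas2 (-0.080) with the probe set brightest in liver. Of 126 called genes named, 87 kept their call without both livers, and 17 of 114 that are not clock genes kept it with clock components. Without day 4, 34 of the 126 kept their call, against 105 without day 8 and 75 without day 15. With only the 30 WY14643 and GW501516 arrays in the fit, 78 of the 126 kept it. With the mean of a gene's probe sets 109 of the 126 kept their call and 17 lost it. Fabp4 and Slc35f2 stayed called there with smaller differences, 0.81 and 0.72.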
